A study of Mus musculus with 24 samples.

Results

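Type 2 immunity in the gut runs on a small set of cytokines and receptors, and 10 of their genes were followed here in the distal jejunum of mice given succinate. They were *Il25*, *Il13*, *Il4*, *Il5*, *Il33*, *Il17rb*, *Il4ra*, *Il13ra1*, *Il1rl1* and *Gata3*, taken by gene symbol as 10 of the 56691 genes in the expression tables (34471 of the 56691 were seen at all in the 24 libraries). Each library was bulk RNA sequencing of 1 mouse. The 8 groups of 3 mice combined sex, genotype and treatment: C57BL/6 males or females, wild type or with a germline disruption of *Ptk6* (*Ptk6*-/-), a gene for an intracellular tyrosine kinase, on regular drinking water (control) or on water with 100 mM succinate for 7 days. All mice came from 1 colony, from different litters, and were 9 to 11 weeks old at the end. The disruption was present in every cell of the mouse, and whole tissue was sequenced, so fewer cells of a type and less RNA per cell cannot be told apart. *Ptk6* itself had 284 to 2405 counts in wild type libraries and 7 to 61 in *Ptk6*-/- libraries.

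In the small intestine, tuft cells, rare chemosensory cells of the epithelium, sense luminal succinate and secrete IL-25. IL-25 acts on group 2 innate lymphoid cells through a receptor whose specific chain is encoded by *Il17rb*, and these cells then release IL-13, IL-5 and other cytokines. IL-13 and IL-4 signal through IL-4 receptor alpha and IL-13 receptor alpha 1 on epithelial cells and favour tuft and goblet cell fates, which closes the loop. IL-33, an alarmin of stromal and epithelial cells, works beside IL-25 through its receptor ST2, encoded by *Il1rl1*, and GATA3 is the transcription factor that type 2 lymphocytes depend on.

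Total counts lay between 8080321 and 52824743 per library, and 3 counts or fewer were read as a floor, which corresponded to 0.0509 to 0.823 CPM, that is counts scaled to library size. In all, 3 libraries stood apart. The library labelled female wild type succinate replicate 2 held 278018 counts of the heart gene *Myh6* and 772 counts of the Y-linked *Ddx3y*, against at most 8 counts of *Ddx3y* in the other libraries labelled female. Its 4 Y-linked markers summed to 74.3 CPM, within the 33.5 to 90.2 CPM of the libraries labelled male. Male *Ptk6*-/- succinate replicate 1 was the shallowest library, with 29.7% of its counts in the 18S ribosomal RNA gene, and male wild type control replicate 1 had 51.2% there. Lung transcripts were present in all 6 female *Ptk6*-/- libraries and in female wild type succinate replicate 3, with 209 to 404 counts of *Scgb1a1*, and the other 17 libraries had at most 9 counts of it. The 8 markers of jejunal epithelium were all present in every library and summed to between 7331 and 23961 CPM.

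The 10 genes differed widely in level. Per gene length, as deposited FPKM, which are fragments scaled to gene length and library size, the median level over 24 libraries was 19.8 for *Il13ra1*, 11.1 for *Il4ra*, 2.57 for *Il33*, 1.33 for *Il1rl1*, 0.539 for *Il17rb* and 0.259 for *Gata3*. *Il4* had a median of 0.0695 FPKM, and *Il25*, *Il13* and *Il5* had a median of 0. The receptor chains of IL-13 and IL-4 were thus far more abundant in this tissue than any of the cytokines. *Il25*, *Il13* and *Il5* each had 3 counts or fewer in 14 of 24 libraries, and *Il4* in 5. The 2 groups with the highest mean FPKM were both succinate groups for 6 of the 10 genes, and the order by CPM gave the same number.

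*Il25*, the tuft cell cytokine (chromosome 14, 55170152 to 55173294, plus strand, GRCm39), was almost confined to succinate libraries. Among wild type females it had 0, 4 and 0 counts in the controls and 41, 46 and 4 after succinate. The counts in *Ptk6*-/- females were 4, 0 and 0 against 3, 61 and 28. In wild type males they were 0 in all 3 controls and 6, 9 and 9 after succinate, and in *Ptk6*-/- males all 6 libraries had 0 counts. Every succinate library of wild type mice of either sex lay above its controls as CPM, narrowly so for female replicate 3 (0.103 against 0.0864 CPM), whereas in *Ptk6*-/- females 1 succinate library lay within the range of the controls. As mean CPM, *Il25* was 0.847 ± 0.700 (SD, n = 3) in wild type females after succinate and 0.577 ± 0.581 (SD, n = 3) in *Ptk6*-/- females, so these 2 highest groups differed by less than their spread. The highest wild type library, at 1.49 CPM, was replicate 2, which carries heart and Y-linked transcripts, and without it the wild type mean was 0.525 CPM, under that of *Ptk6*-/- females. In wild type males the mean after succinate was 0.168 ± 0.0570 CPM (SD, n = 3), at least 1.42-fold above the controls when each control library at 0 is set to 3 counts. That bound is limited by male wild type control replicate 1, where 3 counts correspond to 0.243 CPM, above every succinate library of the group, and without it the rise is at least 2.98-fold. The shallow male *Ptk6*-/- succinate replicate 1 could not have shown such a level, since 3 counts there correspond to 0.823 CPM. In the deeper replicates 2 and 3 of that group the floor was 0.0853 and 0.0665 CPM.

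*Il25* reached 10 counts in too few libraries to be tested in any of the 4 comparisons of succinate with control. The comparison of genotypes in succinate females did test it and did not call it, nor did the libraries of the 2 genotypes lie apart. A single succinate effect fitted to all 24 mice beside the levels of each sex and genotype, a fit added after the data were seen, called *Il25* higher, with a log2 fold change of 4.41 ± 0.88 (SE; adjusted p = 0.0275), in a fit that called 94 of 21694 genes (0.433%). *Il25* passed the count minimum only through female succinate libraries, with 41, 46, 61 and 28 counts, so it had to differ and the call is no support. Without the 3 libraries that stand apart it was 4.15 ± 0.95 (SE) with an adjusted p of 0.0855.

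*Il13*, the effector cytokine for epithelial remodelling (chromosome 11, 53522151 to 53525529, minus strand), had 0 counts in all 6 control libraries of females. After succinate it had 50, 28 and 4 counts in wild type females and 27, 175 and 37 in *Ptk6*-/- females. The groups did not overlap in either genotype. With the control libraries at 3 counts each, mean CPM was at least 11.02-fold higher in wild type and at least 20.6-fold higher in *Ptk6*-/- females. The latter rested on replicate 2, at 3.45 CPM against 0.485 and 0.627, and without it was at least 7.55-fold. In wild type males the counts were 0, 0 and 5 in controls and 11, 0 and 7 after succinate, which overlap, and in *Ptk6*-/- males 3, 4 and 0 against 0, 0 and 0. *Ptk6*-/- females after succinate had the highest mean, 1.52 ± 1.67 CPM (SD, n = 3), and wild type females the second, 0.722 ± 0.550 CPM (SD, n = 3), a difference within their spread. The 175 counts of *Ptk6*-/- female succinate replicate 2 were the highest of any library.

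*Il13* entered the test in *Ptk6*-/- females only through its succinate libraries, and its unadjusted p was 0.00188 and its adjusted p 0.251. With 1 succinate effect for the 12 females, again an added fit, *Il13* was called higher with an adjusted p of 0.0251, in a fit that called 176 of 20531 genes (0.857%). There too it passed the count minimum only through succinate libraries, so it had to differ and the call is no support. Without the library labelled female wild type succinate replicate 2 the adjusted p was 0.0564 and *Il13* was no longer called. In that reduced fit 119 genes were called.

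*Il4* and *Il5*, which flank *Il13* on chromosome 11, were scarcer. *Il4* (53493809 to 53509496, minus strand), a cytokine shared by T helper cells, mast cells and basophils, had 2, 5 and 5 counts in *Ptk6*-/- female controls and 12, 32 and 18 after succinate. These 2 groups did not overlap, and the log2 fold change was 1.91 ± 0.80 (SE; adjusted p = 0.461). In wild type females *Il4* had 16, 4 and 12 counts against 15, 24 and 4, and in the 12 males between 0 and 9. *Il5* (53611621 to 53615933, plus strand), the growth factor of eosinophils, had 0, 4 and 2 counts against 13, 60 and 6 in *Ptk6*-/- females, the second group without overlap above the first. Elsewhere *Il5* lay between 0 and 8 counts, and it was tested in no comparison. Across the 4 cytokines, *Ptk6*-/- female succinate replicate 2 was thus the highest library for *Il25*, *Il13*, *Il4* and *Il5* by count. As CPM it was the highest only for *Il13* and *Il5*. The library labelled female wild type succinate replicate 2 was higher for *Il25* (1.49 against 1.20 CPM) and *Il4* (0.778 against 0.631 CPM).

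**Figure D1:**
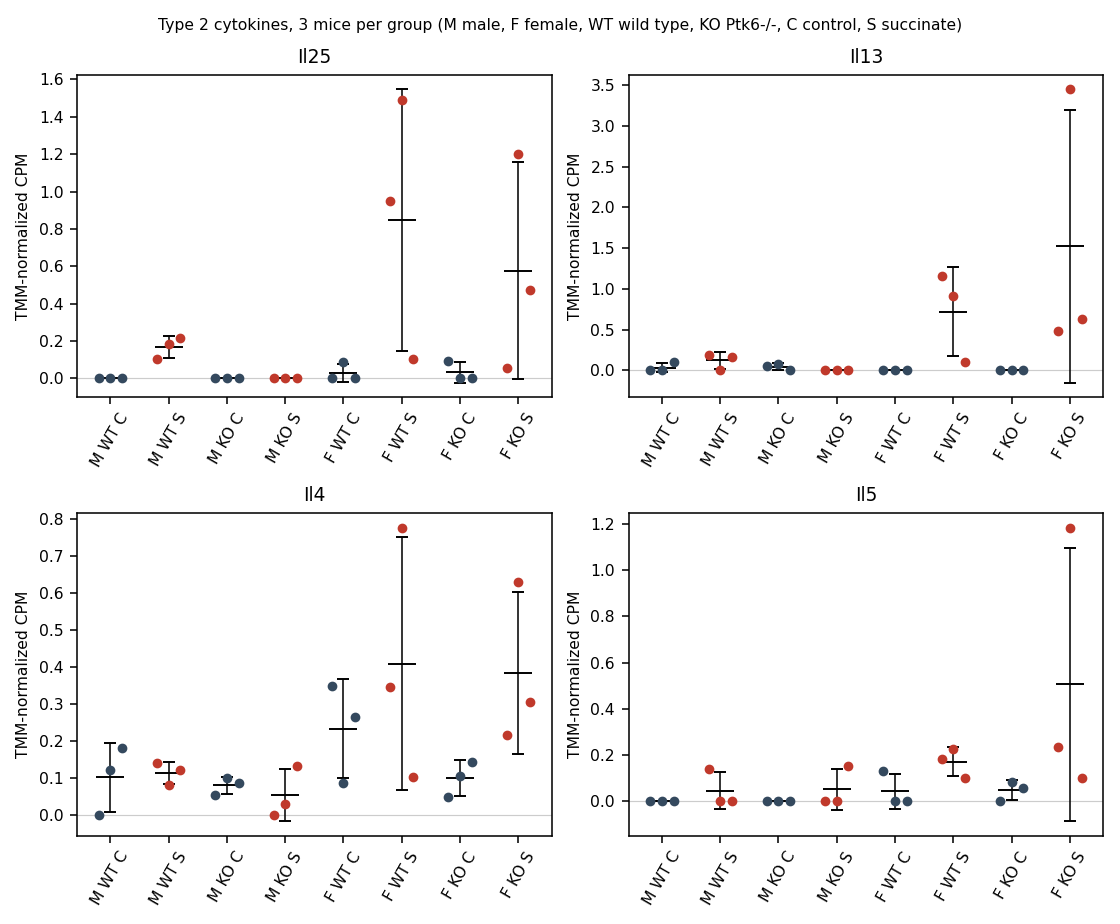
TMM-normalized CPM of *Il25*, *Il13*, *Il4* and *Il5* in each of 24 libraries (points, 3 per group), with the group mean and SD in black and succinate groups in red. The highest values of *Il25* and *Il13* were in female succinate libraries, up to 1.49 CPM (wild type replicate 2, the library with heart and Y-linked transcripts) and 3.45 CPM, and control libraries stayed at or under 0.0945 and 0.101 CPM.

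The neighbours of these 3 cytokine genes on chromosome 11 were read in the same way, after the values were seen. *Rad50*, the DNA repair gene that lies between *Il13* and *Il5* and holds control elements of the locus, had group means of 8.85 to 14.6 CPM. *Irf1*, an interferon response gene beyond *Il5*, had a mean of 196.6 CPM in wild type female controls and 128.3 after succinate. *Kif3a*, beyond *Il4*, lay between 5.56 and 8.32 CPM in all 8 groups. The pattern of *Il13*, at 0 in female controls and present in all 6 female succinate libraries, was therefore not that of these 3 neighbours.

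The stretches upstream of *Il13*, *Il5* and *Il4* are shown because these neighbours all had their highest group means in the 2 female succinate groups, and that of *Il1rl1* because it holds several copies of the short GATA motif that GATA3, a member of the set, recognizes. They are RefSeq windows on GRCm38.p6, a different build from the gene positions above, and each runs 5′ to 3′ on the gene's strand over the 250 bases before an annotated start. Capitals mark the motif AGATAA or one of its variants that GATA factors also read (AGATAG, or else TGATAA, or else TGATAG), on either strand. The windows are *Il13* at chr11:53634703-53634952 (minus strand), *Il5* at chr11:53720544-53720793 (plus strand), *Il4* at chr11:53617339-53617588 (minus strand) and *Il1rl1* at chr1:40429320-40429569 (plus strand).
Il13: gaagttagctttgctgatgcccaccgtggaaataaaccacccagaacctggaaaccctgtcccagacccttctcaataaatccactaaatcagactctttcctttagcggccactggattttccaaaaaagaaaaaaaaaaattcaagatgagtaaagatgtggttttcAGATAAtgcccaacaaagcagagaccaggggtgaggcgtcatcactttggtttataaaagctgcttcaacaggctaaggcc
Il5: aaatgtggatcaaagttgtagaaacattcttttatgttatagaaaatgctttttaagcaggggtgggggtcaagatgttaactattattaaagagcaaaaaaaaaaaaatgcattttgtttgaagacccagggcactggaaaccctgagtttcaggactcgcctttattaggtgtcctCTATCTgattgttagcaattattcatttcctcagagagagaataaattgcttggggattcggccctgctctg
Il4: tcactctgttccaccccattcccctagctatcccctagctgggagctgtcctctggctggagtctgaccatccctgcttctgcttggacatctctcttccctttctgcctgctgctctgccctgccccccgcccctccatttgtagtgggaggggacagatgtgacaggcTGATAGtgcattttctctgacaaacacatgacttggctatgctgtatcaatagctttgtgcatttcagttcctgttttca
Il1rl1: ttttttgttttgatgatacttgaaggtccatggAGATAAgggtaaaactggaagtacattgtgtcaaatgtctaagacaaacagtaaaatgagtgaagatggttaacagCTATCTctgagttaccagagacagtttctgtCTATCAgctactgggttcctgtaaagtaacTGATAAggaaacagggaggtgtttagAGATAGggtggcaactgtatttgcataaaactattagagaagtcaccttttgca

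In the windows shown for *Il13*, *Il4* and *Il5* the single match began 81, 80 and 72 bases before the start, and the *Il1rl1* window held 5 matches. In windows of the full length, which add 50 bases after the start, 29.8% of 32851 promoter windows held at least 1 match and 18 windows (0.0548%) held 5 or more. RefSeq windows were found for 9 of the 10 genes, 12 windows in all, and not for *Il25*. A second *Il4* window, at chr11:53618666-53618915, lies farther upstream on the gene's strand than the one shown. It held no match before its start, and its only match began 14 bases after the start. The near-equal distances in *Il13*, *Il4* and *Il5* thus depend on which *Il4* window is taken. The second *Il1rl1* window and *Gata3* had 1 match each. None of these letters occurred in the windows of *Il17rb*, *Il4ra*, *Il33* and *Il13ra1*. The letters TTC and GAA with 4 bases between them, a motif read by STAT6 and its relatives, occurred in 6.95% of all windows and in 1 window each of *Il4* and *Il33*. These are matches of letters only.

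*Il33* (chromosome 19, 29902514 to 29938118, plus strand) had its highest libraries in *Ptk6*-/- mice, in controls as well as after succinate. Its 3 control values were 8.09, 7.97 and 5.95 CPM in wild type males and 10.7, 9.15 and 19.1 CPM in *Ptk6*-/- males. In female controls they were 7.64, 9.61 and 9.54 CPM in wild type and 15.3, 15.1 and 20.5 CPM in *Ptk6*-/-. After succinate the females had 10.4, 5.61 and 9.47 CPM in wild type and 16.1, 19.7 and 17.2 CPM in *Ptk6*-/-. In these 3 comparisons every *Ptk6*-/- library lay above every wild type library. After succinate in males the values overlapped, at 10.97, 3.28 and 3.54 CPM in wild type and 4.11, 16.5 and 14.3 CPM in *Ptk6*-/-, where the lowest was the shallow replicate 1.

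The log2 fold change of *Il33* for *Ptk6*-/- over wild type was 0.80 ± 0.29 (SE; adjusted p = 0.134) in male controls, 0.96 ± 0.24 (SE; adjusted p = 0.367) in female controls and 1.05 ± 0.33 (SE; adjusted p = 0.931) in succinate females, and none of the 3 was called. Leaving out each library in turn gave 0.43 to 1.00 in male controls, 0.82 to 1.04 in female controls and 0.81 to 1.24 in succinate females, and the 0.43 ± 0.23 (SE) was without *Ptk6*-/- control replicate 3, the library with 19.1 CPM. The 3 comparisons share no mice. Without the library labelled female wild type succinate replicate 2, the value in succinate females was 0.81 ± 0.27 (SE), and without male wild type control replicate 1, that in male controls was 0.91 ± 0.32 (SE). Succinate against control gave log2 fold changes of *Il33* from -0.32 to 0.03 over the 4 sex and genotype groups, all with an adjusted p of at least 0.940. In wild type males that rested on succinate replicate 1, the library with 10.97 CPM, and without it *Il33* was called lower at -1.14 ± 0.25 (SE; adjusted p = 0.0279), in a fit that called 1077 of 18555 genes against 0 with all 6 libraries. Markers of the lung, a tissue where *Il33* is abundant, summed to between 10.4 and 16.9 CPM in *Ptk6*-/- female controls and at most 0.331 CPM in wild type female controls. In male *Ptk6*-/- controls, where *Il33* also lay above wild type, they summed to at most 0.179 CPM, and in female wild type succinate replicate 3 they summed to 14.5 CPM with *Il33* at 9.47 CPM. The 7 fibroblast and endothelial markers, whose cells also express *Il33*, summed to 389.0 to 595.9 CPM in male *Ptk6*-/- controls against 361.0 to 449.9 in wild type, and to 459.3 to 619.2 against 376.6 to 421.1 in female controls. In succinate females, where *Il33* also lay apart by genotype, these markers overlapped, at 586.3 to 822.8 CPM in *Ptk6*-/- and 511.9 to 845.8 CPM in wild type. Their part in the *Il33* values was not tested.

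*Il17rb*, the specific chain of the IL-25 receptor (chromosome 14, 29718092 to 29730853, minus strand), was higher after succinate in every sex and genotype as CPM, though as deposited FPKM it overlapped the controls in *Ptk6*-/- males. In males it had 2.10, 2.50 and 2.29 CPM in wild type controls against 4.32, 3.60 and 3.86 CPM after succinate, and 2.55, 1.95 and 1.52 CPM against 5.21, 2.56 and 2.93 CPM in *Ptk6*-/- mice. In females it had 2.10, 2.27 and 2.60 CPM against 9.39, 8.01 and 3.30 CPM in wild type, and 1.65, 2.59 and 1.79 CPM against 4.12, 11.2 and 11.3 CPM in *Ptk6*-/- mice. All 12 succinate libraries lay above every control library of their own sex and genotype. In male *Ptk6*-/- mice the margin was narrow, with 2.56 CPM in the lowest succinate library and 2.55 CPM in the highest control, and the 5.21 CPM of the shallow replicate 1 rested on 19 counts. As FPKM these 2 groups overlapped, at 0.595, 0.417 and 0.299 in controls and 0.317, 0.483 and 0.588 after succinate, with means of 0.437 ± 0.149 and 0.463 ± 0.137 (SD, n = 3). The 0.317 FPKM was that of the shallow replicate 1, with 29.7% of its counts in 18S and a TMM factor of 0.451. The CPM include that factor, and its part in the difference between the 2 scales was not tested. As CPM, the order seen for *Il17rb* in all 4 pairs of groups held for 11 of the 21694 genes with enough counts (0.0507%), a count made after the data were seen. They included *Trpm5*, the cation channel of tuft cells, and the 3 near-identical *Sprr2a* genes, whose reads counting may divide arbitrarily.

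By group the *Il17rb* level ran from 8.88 ± 4.12 CPM (SD, n = 3) in *Ptk6*-/- females after succinate, through 6.90 ± 3.19 in wild type females, 3.93 ± 0.366 in wild type males and 3.57 ± 1.44 in *Ptk6*-/- males, to 2.32 ± 0.257, 2.30 ± 0.199, 2.01 ± 0.507 and 2.01 ± 0.515 in the 4 control groups. The 2 female succinate groups differed by less than their spread, as did the 2 male succinate groups and the 4 control groups among themselves. Averaged over the 4 sex and genotype groups, *Il17rb* rose by a log2 fold change of 1.31 ± 0.20 (SE; adjusted p = 0.00132), the 1 member called among the 7 that had an estimate, in a comparison that called 158 of 21694 genes (0.728%). Leaving out each library in turn gave 1.22 to 1.40, with adjusted p from 0.000152 to 0.00482, and leaving out the 3 libraries that stand apart gave 1.20 ± 0.21 (SE; adjusted p = 0.0105). On deposited FPKM, limma gave 0.53 ± 0.10 (SE; adjusted p = 0.0164) as log2(FPKM + 1), under the 2-fold limit and so not called, and 1.08 ± 0.22 (SE; adjusted p = 0.0223) as log2(FPKM + 0.1). Within single groups the log2 fold change was 0.76 ± 0.27 in wild type males, 0.81 ± 0.45 in *Ptk6*-/- males, 1.59 ± 0.44 in wild type females and 2.12 ± 0.46 in *Ptk6*-/- females (SE), with adjusted p of 0.947, 0.614, 0.550 and 0.251. Without the shallow replicate 1 the value in *Ptk6*-/- males was 0.41 ± 0.31 (SE), on log2(FPKM + 1) it was 0.03 ± 0.14 (SE), and without the library with heart transcripts that in wild type females was 1.48 ± 0.47 (SE). The annotation places *Actr8*, a chromatin remodelling gene, over *Il17rb* on the other strand. After succinate its means were 22.1 CPM in *Ptk6*-/- females, 21.6 in wild type females, 19.4 in wild type males and 15.8 in *Ptk6*-/- males. The control groups had means of 15.9 to 18.7 CPM. The order of the 3 highest group means was thus that of *Il17rb*. The libraries were stranded, but the strand setting of the counting was not given in the sources used here. The part of *Actr8* reads in the *Il17rb* values was not tested.

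Markers of tuft cells and, less clearly, of lymphoid cells were read beside *Il17rb*. The 13 tuft cell markers summed to 63.9 to 97.9 CPM in the 12 control libraries, to 548.4, 493.2 and 168.2 CPM in wild type females after succinate, to 246.1, 496.4 and 500.4 CPM in *Ptk6*-/- females, to 113.7, 144.2 and 170.6 CPM in wild type males and to 60.9, 69.6 and 116.2 CPM in *Ptk6*-/- males. The female succinate libraries with the lower tuft sum, wild type replicate 3 and *Ptk6*-/- replicate 1, were also those with the lower *Il17rb*, and they had the lowest *Il25* of their groups. In males it was the other way round, since replicate 1 had the lowest tuft sum and the highest *Il17rb* of the succinate libraries in both genotypes. The 9 markers of group 2 innate lymphoid cells, which carry the receptor, summed to 20.3 to 34.1 CPM in controls, 24.9 to 26.5 CPM in wild type females after succinate and 31.1 to 57.6 CPM in *Ptk6*-/- females. In males after succinate they summed to 24.01 to 26.0 CPM in wild type and to 10.1, 27.8 and 22.4 CPM in *Ptk6*-/- mice, where replicate 1, with the highest *Il17rb*, had the lowest sum. That library was the shallow one, with 5 of the 9 lymphoid and 4 of the 13 tuft cell markers at 0 counts. Of the lymphoid list *Calca* was at 0 in all 12 controls and *Ccr8* had at most 8 counts in any library. The part of either cell type in the *Il17rb* values was not tested.

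**Figure D2:**
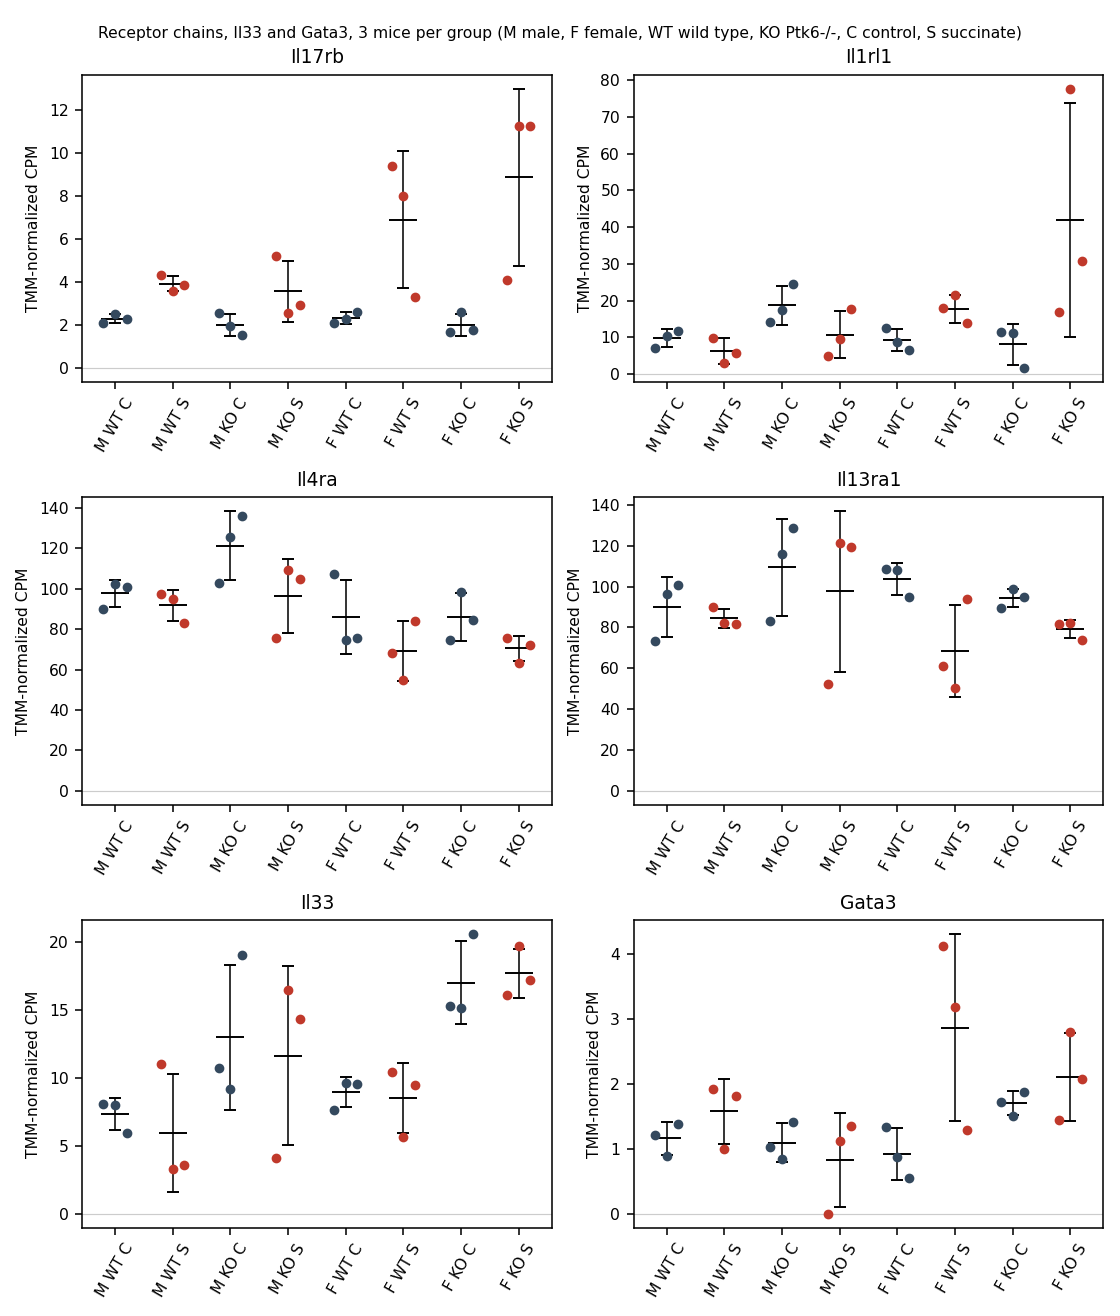
TMM-normalized CPM of *Il17rb*, *Il1rl1*, *Il4ra*, *Il13ra1*, *Il33* and *Gata3* in each of 24 libraries (points, 3 per group), with the group mean and SD in black and succinate groups in red. On this scale *Il17rb* lay above control in every sex and genotype, narrowly in *Ptk6*-/- males (2.56 against 2.55 CPM), *Il1rl1* in females, and *Il33* was higher in *Ptk6*-/- than in wild type mice except in succinate males, where the groups overlapped.

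*Il1rl1*, the IL-33 receptor (chromosome 1, 40468730 to 40487308, plus strand), was measured in every library. In wild type females it had 12.6, 8.72 and 6.53 CPM in controls and 18.1, 21.5 and 13.9 CPM after succinate. In *Ptk6*-/- females it had 11.5, 11.1 and 1.65 CPM against 17.0, 77.7 and 30.8 CPM. Neither pair overlapped. In males the succinate libraries overlapped the controls and had the lower mean in both genotypes, with 6.95, 10.4 and 11.8 CPM against 9.90, 3.12 and 5.76 CPM in wild type and 14.05, 17.5 and 24.4 CPM against 4.94, 9.47 and 17.7 CPM in *Ptk6*-/- mice. The log2 fold change was 0.96 ± 0.33 (SE; adjusted p = 0.617) in wild type females and 2.35 ± 0.80 (SE; adjusted p = 0.417) in *Ptk6*-/- females. The difference between the sexes in this effect had a log2 size of 1.60 ± 0.56 (SE; unadjusted p of 0.0149, adjusted p = 0.908 by edgeR) in wild type and 3.09 ± 0.97 (SE; unadjusted p of 0.00757, adjusted p = 0.509 by edgeR) in *Ptk6*-/- mice, so neither passed adjustment over all genes. Leaving out each library in turn gave 1.28 to 2.13 and 2.30 to 3.62.

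Genotype also separated *Il1rl1* in some mice. In male controls all 3 *Ptk6*-/- libraries lay above all 3 wild type libraries, with a log2 fold change of 0.92 ± 0.24 (SE; adjusted p = 0.0627). In succinate females it was 1.24 ± 0.53 (SE; adjusted p = 0.931), with overlap, and 0.44 to 1.60 when each library was left out in turn, the 0.44 ± 0.38 (SE) being without *Ptk6*-/- succinate replicate 2. Without the library with heart transcripts the succinate effect in wild type females was 0.82 ± 0.34 (SE), and without male wild type control replicate 1 the genotype effect in male controls was 0.77 ± 0.23 (SE). The highest group, *Ptk6*-/- females after succinate, had 41.8 ± 31.8 CPM (SD, n = 3), and the group next in order, *Ptk6*-/- male controls, 18.7 ± 5.28 CPM, which do not differ beyond their spread. The 77.7 CPM of *Ptk6*-/- female succinate replicate 2 came with 846.7 CPM summed over 8 markers of mast cells, which carry ST2 and make IL-13, against 82.7 and 113.9 CPM in the other 2 libraries of that group. The mast cell sum was 151.1, 118.9 and 29.3 CPM in wild type females after succinate and 15.1 to 36.1 CPM in the other 18 libraries. *Mcpt1*, a mucosal mast cell protease, made up the larger part of it in both female succinate groups, with group means of 243.4 CPM in *Ptk6*-/- and 65.9 CPM in wild type females after succinate, and *Cma1* had at most 10 counts in any library. Without that replicate 2 the succinate effect on *Il1rl1* in *Ptk6*-/- females was 1.54 ± 0.76 (SE; adjusted p = 0.951). The part of mast cells in the *Il1rl1* and *Il13* values was not tested.

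Genes beside *Il1rl1* in the interleukin 1 receptor cluster of chromosome 1 were read too, after the values were seen. *Il1r1*, the receptor of interleukin 1, had 10.7 CPM in *Ptk6*-/- females after succinate against 9.78 in their controls, *Il1rl2* 2.26 against 2.41, *Il1r2* 2.13 against 1.54 and *Il18rap* 1.09 against 1.52. *Il18r1*, a receptor chain of interleukin 18, had 4.53 against 3.03 CPM there and 5.56 against 1.68 CPM in wild type females. *Il1r1* had 10.6 (6.63 to 14.2) against 6.06 (5.81 to 6.37) CPM in wild type females. *Il1rl1*, at 41.8 against 8.07 CPM, thus stood out from these neighbours in *Ptk6*-/- females but not from *Il18r1* or *Il1r1* in wild type females. In male controls *Il1r1* (9.41 to 14.6 against 7.28 to 9.03 CPM), *Il1rl2* and *Il18r1* also lay higher in *Ptk6*-/- than in wild type mice without overlap. *Il1r2* and *Il18rap* overlapped there.

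**Figure D3:**
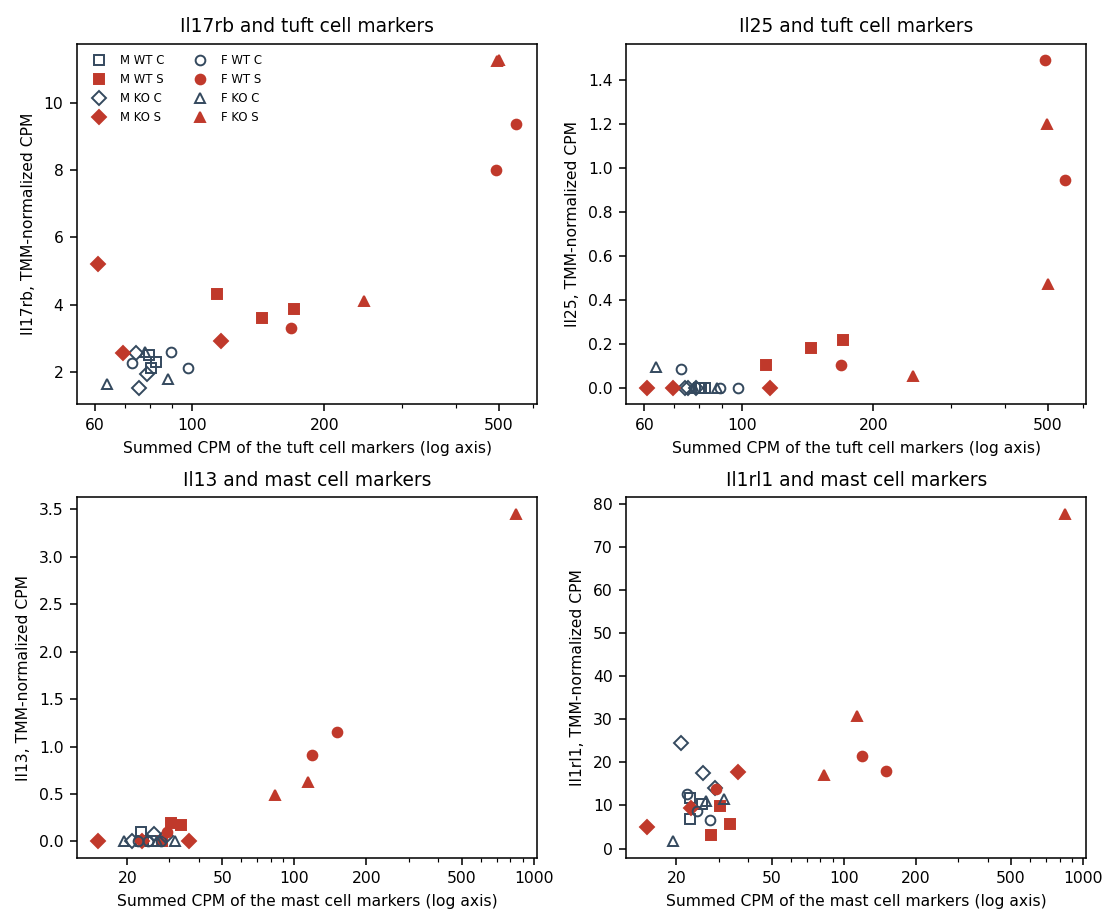
Each point is 1 of 24 libraries (M male, F female, WT wild type, KO *Ptk6*-/-, C control and open, S succinate and filled), with the summed CPM of the tuft cell or mast cell markers on a log axis and the CPM of *Il17rb*, *Il25*, *Il13* or *Il1rl1* on a linear axis. The 4 libraries with the highest tuft sums, 493.2 to 548.4 CPM, had *Il17rb* at 8.01 to 11.3 CPM, and the library with 846.7 CPM of mast cell markers had the highest *Il13* and *Il1rl1*.

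*Il4ra*, the chain shared by the IL-4 and IL-13 receptors (chromosome 7, 125151292 to 125178646, plus strand), and *Il13ra1*, its partner for IL-13 (chromosome X, 35375763 to 35434912, plus strand), were abundant everywhere and tended the other way. *Il13ra1* had 108.5, 108.0 and 94.9 CPM in wild type female controls and 61.3, 50.3 and 94.0 CPM after succinate, and 89.7, 98.7 and 94.7 CPM against 81.7, 82.0 and 74.0 CPM in *Ptk6*-/- females. Both pairs lay apart as CPM, in wild type by 94.0 against 94.9, but overlapped as FPKM, at 18.4 to 21.4 against 9.58 to 20.02 in wild type and 15.5 to 21.1 against 16.8 to 18.8 in *Ptk6*-/- females. The CPM counts gave log2 fold changes of -0.58 ± 0.29 (SE; adjusted p = 0.680) and -0.28 ± 0.22 (SE; adjusted p = 0.680). *Il4ra* had log2 fold changes between -0.31 and -0.10 in the 4 groups, and averaged over them -0.25 ± 0.11 (SE; unadjusted p of 0.0282, adjusted p = 0.256 by edgeR). Neither gene passed the test, and in no group did all 3 succinate libraries exceed the controls. Markers of the jejunal epithelium, where both chains are expressed, summed to 15154, 9081 and 15957 CPM in wild type females after succinate against 20213 to 23961 CPM in their controls, and to 7331 to 11088 against 10162 to 20922 CPM in *Ptk6*-/- females. Their part was not tested. In male controls *Il4ra* was higher in *Ptk6*-/- mice without overlap, with 102.8, 125.6 and 135.8 CPM against 89.9, 102.3 and 100.9 CPM (log2 fold change 0.30 ± 0.13, SE; adjusted p = 0.194).

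*Gata3* (chromosome 2, 9861889 to 9894845, minus strand) was the least abundant per length of the 6 genes with counts in nearly every library. It had 1.33, 0.863 and 0.552 CPM in wild type female controls and 4.12, 3.18 and 1.29 CPM after succinate, which overlap as CPM, only through replicate 3 (log2 fold change 1.66 ± 0.56, SE; adjusted p = 0.617). In *Ptk6*-/- females the values were 1.72, 1.51 and 1.88 CPM against 1.44, 2.80 and 2.07 CPM, which overlap. Control females thus differed by genotype without overlap, with a log2 fold change of 0.93 ± 0.42 (SE; adjusted p = 0.460). In males *Gata3* ranged from 0 in the shallow *Ptk6*-/- succinate replicate 1 to 1.92 CPM. T cell markers, whose cells also use *Gata3*, summed to 36.3 to 61.8 CPM in wild type females after succinate against 54.7 to 104.7 CPM in their controls, and to 35.7 to 43.7 against 56.2 to 114.7 CPM in *Ptk6*-/- females.

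**Figure D4:**
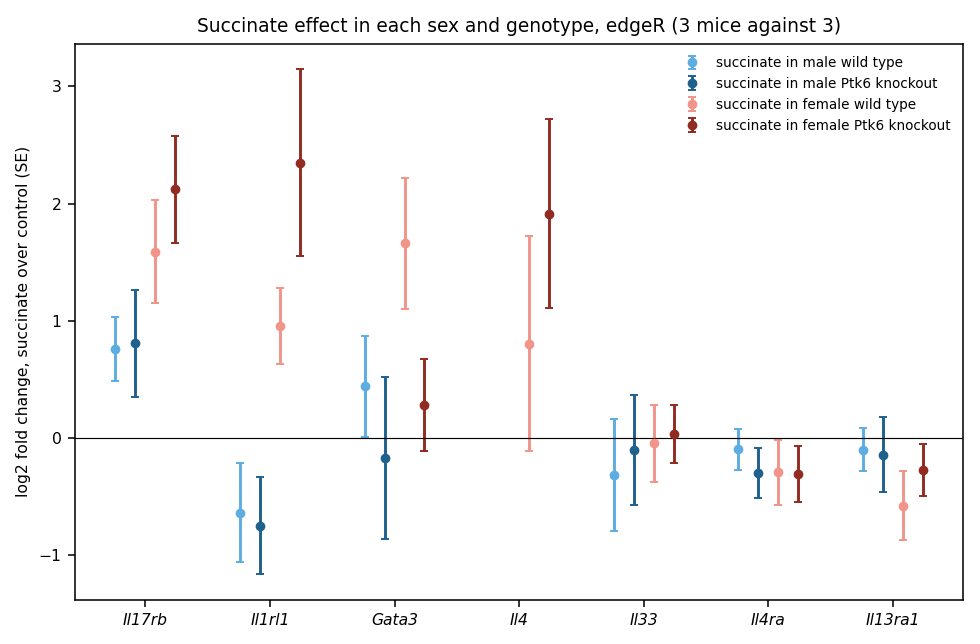
Log2 fold change of succinate over control with its standard error for the 7 genes tested by edgeR in at least 2 of the 4 sex and genotype groups (3 mice against 3 each). *Il17rb* was above 0 in all 4 groups (0.81 from counts and 0.03 from log2(FPKM + 1) in *Ptk6*-/- males), *Il1rl1* was above 0 in both female groups (0.96 and 2.35) and below 0 in both male groups (-0.64 and -0.75), and *Il4* could not be tested in males.

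Counted over the set, calls were few. In the comparisons of succinate with control, 0 of 6 genes tested were called in wild type males, 0 of 6 in *Ptk6*-/- males and 0 of 7 in wild type females, where 0% of all genes were called as well, with 781, 1470 and 1466 genes at an unadjusted p under 0.05. In *Ptk6*-/- females 0 of 8 were called, beside 17 of 19334 genes (0.0879%). DESeq2 called 0 of the tested members in each of the first 3 comparisons, beside 0.245%, 0.206% and 1.37% of all genes, and 2 of 8, *Il13* and *Il17rb*, in the last, beside 2.26%. Genes with all succinate libraries above all controls numbered 1 of 6 tested in wild type males, where 4.62% of all genes did so, 1 of 6 in *Ptk6*-/- males (11% of all genes), 2 of 7 in wild type females (5.96%) and 4 of 8 in *Ptk6*-/- females (11.2%). In each female genotype 1 gene, *Il13ra1*, lay below without overlap, beside 7.31% and 10.1% of all genes. These counts are by CPM. As FPKM, *Il17rb* in *Ptk6*-/- males and *Il13ra1* in both female genotypes overlapped, whereas *Il33* in *Ptk6*-/- females and *Gata3* in wild type females lay above control and *Il4ra* in *Ptk6*-/- males below. *Il13* and *Il4* were among the 8 only because their succinate libraries passed the count minimum. The median log2 fold change of the tested members was -0.10, -0.16, 0.80 and 1.10 in the order above, beside medians over all genes of 0.02, -0.10, 0.03 and -0.04. The 1.10 includes *Il13* and *Il4*, which had to be higher to be tested, so it is no support for a rise of the set.

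For genotype, 0 of 6 tested members were called in male controls, where 142 of 19218 genes (0.739%) were called, 0 of 6 in female controls (0.0158% of all genes), 0 of 6 in succinate males and 0 of 9 in succinate females (0% of all genes in both). Members at an unadjusted p under 0.05 numbered 3, 1, 0 and 2, beside 25.2%, 11.1%, 2.72% and 4.52% of all genes. DESeq2 called none of the members, and 311, 263, 67 and 28 genes in all. Without overlap between genotypes, 3 of 6 lay higher in *Ptk6*-/- male controls (*Il33*, *Il4ra* and *Il1rl1*), beside 16.5% of all genes, 2 of 6 in female controls (*Il33* and *Gata3*), beside 8.51%, and 1 of 9 in succinate females (*Il33*), beside 6.30%. In the 4 interactions edgeR called 0 members and 0% of all genes. DESeq2 called 0 members there too, beside 65 genes for genotype by succinate in males, 61 in females, and 6 and 180 for sex by succinate in wild type and *Ptk6*-/- mice. Of the tested members 3 had an unadjusted p under 0.05, all in the comparison of succinate effects between the sexes, where 5.28% and 7.12% of all genes did so in wild type and *Ptk6*-/- mice: *Il1rl1* in both genotypes and *Il13* in wild type mice (unadjusted p of 0.0376, adjusted p = 0.908 by edgeR). That *Il13* value came from a gene that passed the count minimum only through succinate libraries, with 11, 50 and 28 counts, the last in the library with heart and Y-linked transcripts. *Il13* had no estimate in *Ptk6*-/- mice, because 2 of its 4 groups were at 0. The other genes tested lay between -0.48 and 1.23 in wild type (adjusted p of at least 0.914) and between -0.12 and 2.04 in *Ptk6*-/- mice (adjusted p of at least 0.698), *Il17rb* among them. The genotype by succinate differences lay between -0.60 and 0.22 in males and -1.35 and 1.39 in females, with adjusted p of at least 0.752.

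The added fit with 1 succinate effect in the 12 females called *Il17rb* as well, at 1.85 ± 0.32 (SE; adjusted p = 0.0175), and gave *Il1rl1* 1.64 ± 0.50 (SE; adjusted p = 0.178) and *Il25* 4.38 ± 1.13 (SE; adjusted p = 0.106) as log2 fold changes. In the 12 males the same fit called 0 of 6 tested members and 0 genes in all, with 1774 genes at an unadjusted p under 0.05. *Il17rb* had 0.79 ± 0.25 (SE; adjusted p = 0.568) there and *Il1rl1* -0.69 ± 0.31 (SE; adjusted p = 0.571). These values are not a test of a difference between the sexes.

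Downstream of the cytokines, 16 epithelial genes that IL-13 is known to induce were followed as a list. Averaged over 24 mice, 12 of 15 tested were called higher and 0 lower, with a median log2 fold change of 2.43 beside a median near 0 for all genes, of which 0.728% were called. The list was chosen with earlier results of these data known, so its count is not independent evidence. At an unadjusted p under 0.05, reached by 16.1% of all genes, there were 14 higher and 1 lower, *Fcgbp*, a mucus protein gene. The smallest p were those of *Pla2g4c*, a phospholipase (5.80 ± 0.48), and of the gasdermin genes *Gsdmc4* (2.55 ± 0.23) and *Gsdmc3* (2.43 ± 0.23, SE). *Mptx1*, a mucosal pentraxin, rose by 3.62 ± 0.42 (SE) on the same scale. *Retnlb*, the goblet cell product RELM beta, was called too, without a fold here because its male wild type controls were at 0 counts. It reached 120.3, 91.9 and 0.901 CPM in wild type and 11.3, 213.8 and 31.8 CPM in *Ptk6*-/- females after succinate, and at most 0.722 CPM in any control. The other 7 called were *Gsdmc2*, *Gsdmc*, *Sprr2a1*, *Sprr2a2*, *Sprr2a3*, *Ang4* and *Ccl24*. The *Gsdmc* and *Sprr2a* families are near-identical copies, so their members are not independent. Within single groups, 5 of 15 were called in *Ptk6*-/- females, beside 0.0879% of all genes, and 0 of 15 in each of the other 3, beside 0%. At an unadjusted p under 0.05, 13 of 15 were higher and 1 lower in *Ptk6*-/- females, beside 10.7% of all genes in either direction. In wild type females 13 of 15 were higher (7.77% of all genes) and in wild type males 11 (4.07%). The 1 of 15 in *Ptk6*-/- males was near the share of all genes, 7.75%. The median log2 fold change was 4.03 in *Ptk6*-/- females, 3.27 in wild type females, 1.99 in wild type males and 0.44 in *Ptk6*-/- males.

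The libraries are shown one by one for *Pla2g4c*. It had 1.32 to 18.2 CPM in the 12 controls, 521.2 to 1736 CPM in wild type females and 1628 to 2803 CPM in *Ptk6*-/- females after succinate, 102.2 to 767.4 CPM in wild type males and 19.7, 3.13 and 44.6 CPM in *Ptk6*-/- males. Female wild type succinate replicate 3, with 4 counts each of *Il25* and *Il13*, had the lowest *Pla2g4c* of its group. In *Ptk6*-/- male succinate replicate 3, the 44.6 CPM stood beside 0 counts of *Il25* and *Il13*. The genotype by succinate difference of the list in males had a median of -1.70 beside -0.08 for all genes, with 6 of 15 genes lower at an unadjusted p under 0.05, beside 3.80% of all genes in either direction, and 0 called.

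**Figure D5:**
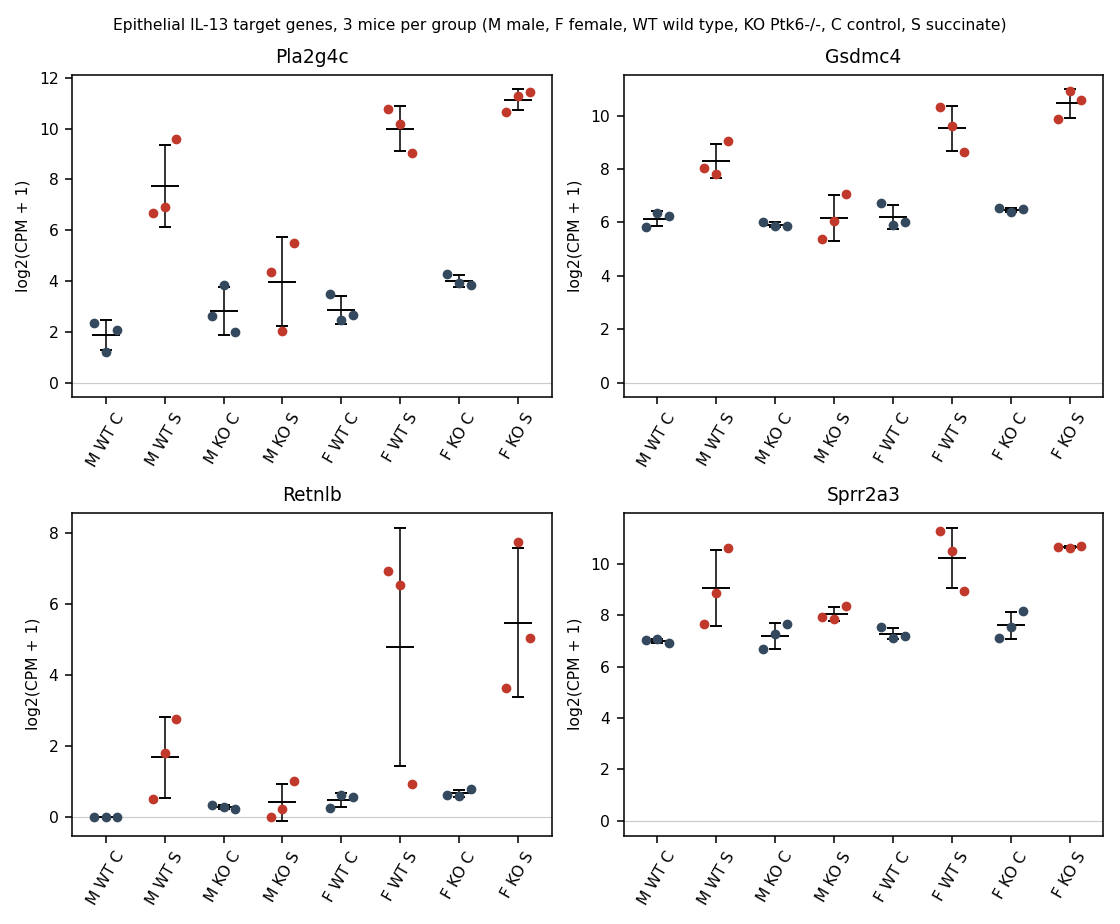
Log2(CPM + 1) of the epithelial genes *Pla2g4c*, *Gsdmc4*, *Retnlb* and *Sprr2a3* in each of 24 libraries (points, 3 per group), with the group mean and SD in black and succinate groups in red. All 6 female succinate libraries and the 3 of wild type males lay above their controls for *Pla2g4c*, and the 3 of *Ptk6*-/- males reached 44.6 CPM at most.

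No other list of the pathway had a member called after succinate averaged over 24 mice. Of 19 signalling and transcription factors, 0 were called, with 1 higher and 4 lower at an unadjusted p under 0.05, a level that 16.1% of all genes reached in that comparison. *Cish*, a suppressor of cytokine signalling that STAT5 induces, had 0.59 ± 0.17 (SE; adjusted p = 0.117) and *Socs3* -0.74 ± 0.26 (SE; adjusted p = 0.179). Of 10 other receptor chains and decoys 9 were tested and 0 called, with 1 at an unadjusted p under 0.05, the smallest p being that of *Il9r*, the IL-9 receptor, at 0.85 ± 0.36 (SE; adjusted p = 0.262). Of 8 other type 2 cytokines 5 were in the table, 4 were tested and 0 called, with 0 at an unadjusted p under 0.05. *Tslp*, an epithelial alarmin, had 0.67 ± 0.53 (SE; adjusted p = 0.552). The median log2 fold changes of the 3 lists were -0.14, -0.17 and 0.27.

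The genes most like each member over 24 libraries were found by Pearson's r of log2 CPM among 13208 protein coding genes (13209 for *Il25*, *Il13* and *Il4*), as a description. For *Il17rb* they included *Matk* (0.909) and the tuft cell channel *Trpm5* (0.904). For *Il25* they were *Casq1* (0.940), *Slc20a1* (0.938) and *Rnf183* (0.935). For *Il13* they included *Cpa3* (0.953), the carboxypeptidase of mast cells, and *Cma2* (0.946), a chymase gene. For *Il4* they were *Fhl2* (0.894), *Acat1* (0.876) and *Pdhx* (0.869). The receptor chains had *Myo5b* (0.921), *Zzef1* (0.914) and *Ptprh* (0.912) for *Il4ra*, and *Ifit1bl2* (0.934), *Cdc42se2* (0.925) and *Cxadr* (0.922) for *Il13ra1*. *Il33*, *Il1rl1* and *Gata3* had lower best values, *Mrps2* (0.815), *Nup88* (0.830) and *Kctd15* (0.869). The 24 libraries share groups and depth, so these values describe likeness only.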

How the data were processed

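Poly(A) RNA of the distal jejunum was sequenced in 24 mice, 3 in each of 8 groups given by the labels. The authors trimmed reads with Cutadapt, aligned them with HISAT2, assembled transcripts with StringTie on GRCm39 and deposited raw counts per gene without pooling mice. They also deposited FPKM values, from StringTie and ballgown, used here for levels between genes. The program that made the counts and its strand setting were not given in the sources used here. All columns of values per sample were used.

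The 10 genes and every list (pathway genes, cell type markers) were chosen with earlier results of these data known. Counts were tested with edgeR 4.0.16 (R 4.3.3; quasi-likelihood test, TMM scaling), on genes that reached 10 counts in 3 or more libraries of a comparison, and p-values were adjusted over all those genes by the Benjamini-Hochberg method. A gene was called at an adjusted p under 0.05 and a change of at least 2-fold. There were 13 comparisons: 8 of 2 groups, 4 interactions and 1 average of the succinate effect over the 4 combinations of sex and genotype. Fold change, standard error (SE) and adjusted p were given for a member with an unadjusted p under 0.05 or with groups that do not overlap, and the other members by count and range. CPM are counts scaled to library size after TMM. Genes alike were ranked by Pearson's r of log2(CPM + 0.5), with the 3 highest named for a member, among protein coding genes with a mean of at least 1 CPM. Some of these genes are not reported here. A fold against a group at 0 was computed with 3 counts in each of its libraries. Totals of 8080321 to 52824743 counts set the precision. Promoter windows came from RefSeq (GRCm38.p6), and none of their coordinates was joined to the gene positions on GRCm39.

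Alternatives were DESeq2 1.42.0, its size factors, no filter on low counts, the replicate number as a block, limma 3.58.1 on log2(FPKM + 1) and log2(FPKM + 0.1), all 24 libraries in 1 fit, a length offset, and leaving out each library. The fits with a common succinate effect, those without libraries that stand apart and the count over 4 pairs were added after the data were seen. The edgeR steps were tested on simulated data.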

Additional observations from a re-analysis of the deposited data

Results flagged for a closer look

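The effect of succinate differed between the sexes at an unadjusted p under 0.05 for 2 genes, in the test of the difference itself. For *Il1rl1* it was higher in females than in males by a log2 difference of 1.60 ± 0.56 (SE; unadjusted p of 0.0149 by edgeR) in wild type and 3.09 ± 0.97 (SE; unadjusted p of 0.00757 by edgeR) in *Ptk6*-/- mice. For *Il13* in wild type mice the p was 0.0376 by edgeR, with no fold given because the female controls were at 0. *Il13* passed the count minimum there only through succinate libraries, with 11, 50 and 28 counts, and the 28 counts were those of the library described next. The adjusted p were 0.908, 0.509 and 0.908. The library labelled female wild type succinate replicate 2, which carries the Y-linked *Ddx3y*, is 1 of the 12 wild type libraries in these tests. Without it *Il1rl1* had 1.45 ± 0.60 (SE; unadjusted p of 0.0328 by edgeR) and *Il13* had no estimate.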

How the results depend on the processing

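No alternative turned the direction of a member's fold change given with its SE. The number of members called was 0 in most comparisons, which says nothing of stability. In *Ptk6*-/- females, succinate against control called 2 members with DESeq2 (*Il13* and *Il17rb*) and 1 with all 24 libraries in 1 fit (*Il17rb*), against 0. In the average over 24 mice, limma called 0 members on log2(FPKM + 1) and 3 on log2(FPKM + 0.1) (*Il25*, *Il13* and *Il17rb*), against 1, beside 53 and 103 of 21694 genes. *Il17rb* had 0.53 and 1.08 there against 1.31, on scales that understate low genes. *Il25* and *Il13* passed the count minimum only through succinate libraries, so their calls here and by DESeq2 are no support. The common succinate effect called 1 member (*Il17rb*) without the 3 libraries that stand apart, against 2. The common effect in the 12 females called 1 (*Il17rb*) without the library labelled female wild type succinate replicate 2, against 2. The cause was not tested for any of these. Leaving out each library in turn gave 0 to 1 members called for succinate in wild type males (1 without succinate replicate 1, *Il33*, which was lower), for succinate in wild type females (1 without succinate replicate 3, *Il17rb*) and for genotype in male controls (1 without *Ptk6*-/- control replicate 1, *Il1rl1*). All genes called in these 3 fits numbered 1077 of 18555, 597 of 18493 and 191 of 18781, against 0, 0 and 142 with all libraries. It gave 0 in the other comparisons of 2 groups and in the interactions, and 1 in the average.

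Replicate numbers do not pair the mice: correlations of the deviations of same-numbered libraries ran from -0.494 to 0.348. With the replicate block, *Il17rb* had 1.31 ± 0.21 (SE; adjusted p = 0.00341) in the average, and the block changed no call of a member.

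Counts over all genes moved more. DESeq2 called 436 genes for succinate in *Ptk6*-/- females against 17, 47, 39 and 258 against 0 in wild type males, *Ptk6*-/- males and wild type females, 311 against 142 and 263 against 3 for genotype in male and female controls, and 390 against 158 in the average. With the replicate block the average called 113 genes, genotype in male controls 5 and succinate in *Ptk6*-/- females 0. Without *Ptk6*-/- control replicate 3, genotype in female controls called 1808 of 18731 genes against 3. In the average, leaving out each library in turn gave 88 to 539 genes called, the 539 being without female wild type succinate replicate 3. Depth limits the cytokines most, since 3 counts correspond to 0.823 CPM in the shallowest library, above the mean *Il13* of wild type females after succinate.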
